A study of Cicer arietinum with 11 samples.

Results

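Of 34760 chickpea transcripts, 50 were expressed in all 4 flower bud stages and at a much lower level in every other tissue sampled. They were chosen by their values: the lowest of flower buds 1 to 4 was at least 5 RPKM (reads per kilobase of transcript, scaled to library depth) and at least 4 times the highest of the other 7 libraries, and the lowest of flower buds 1 to 3 was under 4 times flower bud 4. Their difference between flower buds and other tissues is therefore a description and is given with no test. All samples were of the desi-type genotype ICC4958, with 1 mRNA library each and no treatment. The flower buds (stages 1 to 4, mature plants) were set against flowers (stages 1 to 4, mature plants) and vegetative tissue, which was young leaves of mature plants, the germinating seedling and, from plants 20 days old, the shoot apical meristem. Per the labels' protocols seedlings grew in a culture room and mature plants in the field. Growing site and plant age run with some of the tissues, so site, age and tissue cannot be told apart there. The labels number the stages without describing them, and the numbers are read here as developmental order.

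As background, a flower bud of a legume encloses sepals, petals, stamens and a carpel that are still growing. Inside the anthers, meiosis yields microspores, which are fed by the tapetum, a secretory cell layer that breaks down before pollen is shed, while ovules form inside the carpel. Many plant transcripts are known to be made in anthers for only part of this period and to be gone when the flower opens. Which of these tissues the 50 transcripts came from was not measured, because whole buds were sampled. In whole organs fewer cells of a type and less RNA per cell cannot be told apart. The files give transcript IDs without gene names, and 0 of the IDs occur in the RefSeq table of 29938 chickpea genes, so what the transcripts encode is not stated, no sequence is shown, and the sampled tissues were not checked against marker genes.

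Library totals, recovered from the RPKM values, ran from 14536530 reads in flower bud 2 to 35643139 in flower bud 3. In a transcript of 240 bases, the median length of the 50, 1 read was worth 0.117 to 0.287 RPKM. With 1 library per tissue or stage there was no replicate check. Intervals below are exact 95% Poisson intervals of the recovered reads and cover counting error only.

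Together the 50 transcripts made up 0.320%, 0.525%, 0.555% and 0.368% of the summed RPKM of flower buds 1 to 4. They held 0.0173%, 0.0131%, 0.00765% and 0.0126% in flowers 1 to 4, and 0.00471%, 0.00329% and 0.00589% in the germinating seedling, young leaves and shoot apical meristem. The set was a small part of any bud, with its largest shares in flower buds 2 and 3, and outside buds its share was larger in each flower than in each vegetative tissue. The median transcript of the set had 26.9, 48.8, 45.8 and 23.4 RPKM in flower buds 1 to 4. The same median was 1.66, 1.30, 0.349 and 1.41 RPKM in flowers 1 to 4 and 0.267, 0.245 and 0.407 RPKM in the 3 vegetative tissues. Mean levels over the 4 buds spanned 9.24 to 490.3 RPKM with a median of 38.5, and 6 transcripts averaged at least 100 RPKM.

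**Figure D1:**
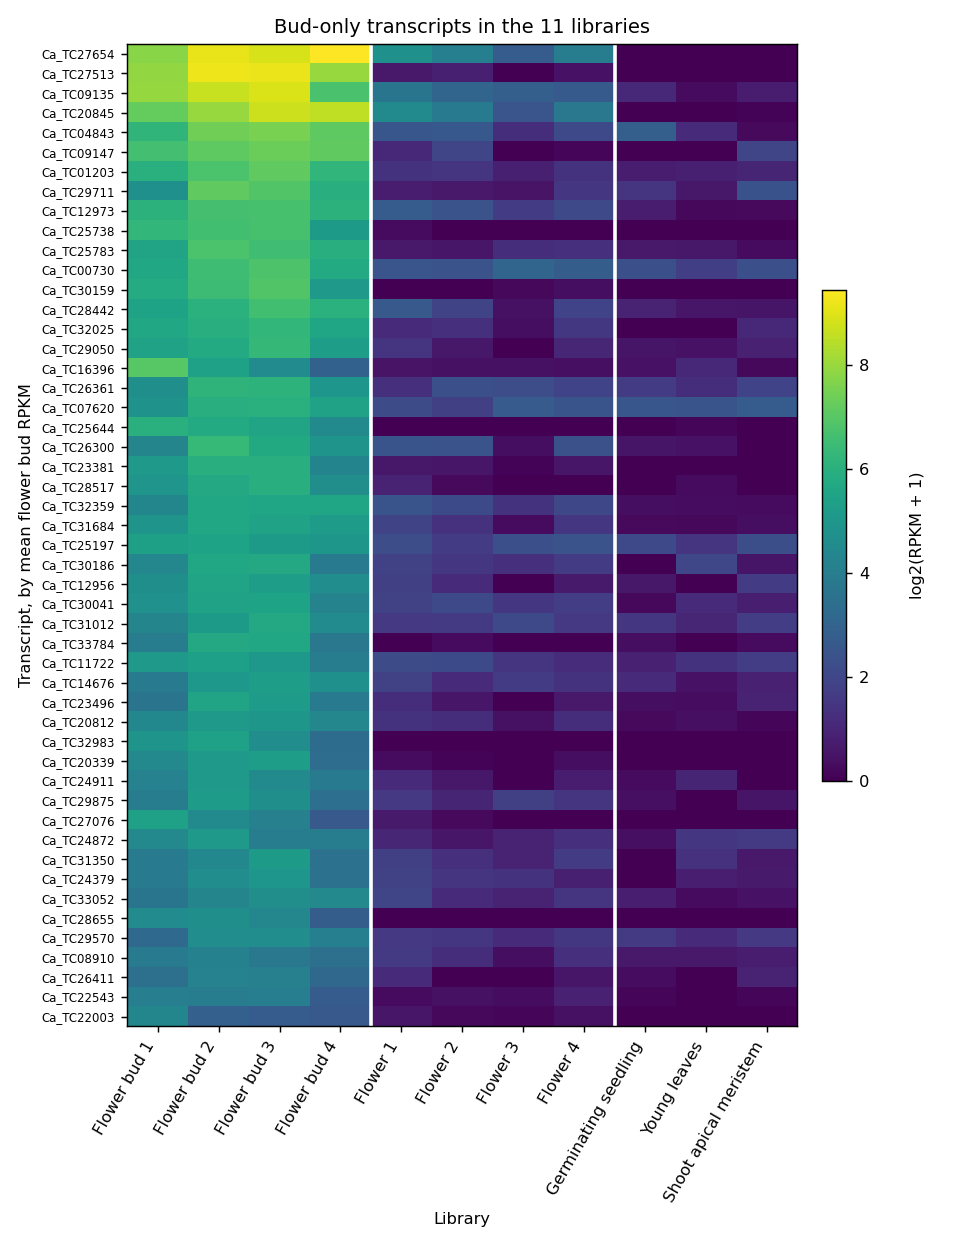
Each row is 1 of the 50 transcripts, ordered by its mean RPKM over the flower buds, each column is 1 library, and colour gives log2(RPKM + 1). White lines part flower buds, flowers and vegetative tissues; the flower bud columns are bright by the rule, and the remaining signal outside buds lies mostly in flowers, above all in Ca_TC27654 and Ca_TC20845.

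**Figure D2:**
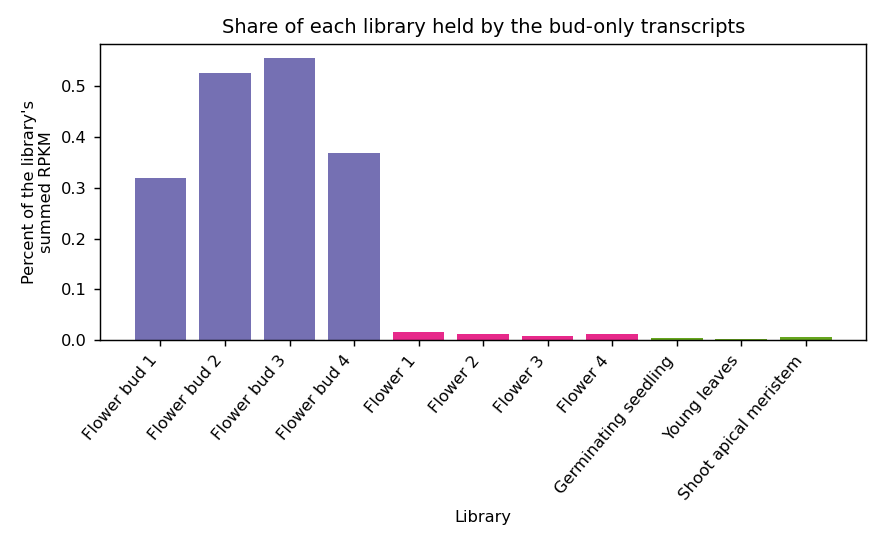
Bars give the summed RPKM of the 50 transcripts as a percent of each library's summed RPKM. The share was 0.555% in flower bud 3, its highest, against 0.0173% in flower 1, the highest outside buds.

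The 6 most abundant transcripts were Ca_TC27654, Ca_TC27513, Ca_TC09135, Ca_TC20845, Ca_TC04843 and Ca_TC09147. Ca_TC27654, of 238 bases, had 219, 565, 473 and 704 RPKM in buds 1 to 4. It had 25.9, 15.97, 5.78 and 14.8 RPKM in flowers 1 to 4 and 0 reads in all 3 vegetative libraries. It alone peaked in flower bud 4, and even its lowest bud was 8.45 times flower 1 (95% counting interval 7.16 to 10.03). Ca_TC20845, of 924 bases, had 149, 258, 422 and 375 RPKM in buds 1 to 4. It had 21.6, 14.1, 4.62 and 13.0 RPKM in flowers 1 to 4, and its only vegetative reads were 2 in the shoot apical meristem. These transcripts were the only pair of the set above 12 RPKM in a flower, both had their lowest bud at stage 1, and both had their lowest flower at stage 3.

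Ca_TC27513, of 214 bases, had 239.6, 603, 576 and 255 RPKM in buds 1 to 4. It had 0.566, 0.800, 0 and 0.375 RPKM in flowers 1 to 4, from 3, 5, 0 and 2 reads, and 0 reads in the vegetative libraries. Its buds and flowers stood furthest apart in the set: the lowest bud was 299.5 times the highest other library, flower 2 (95% counting interval 128 to 924). Ca_TC09135, of 1097 bases, had 251, 409.7, 489 and 107 RPKM in buds 1 to 4. Its level in flower bud 4 was 0.219 times that in flower bud 3, and it had 11.9, 7.52, 6.27 and 5.33 RPKM in flowers 1 to 4. Its vegetative levels were 1.14 RPKM in the germinating seedling, 0.201 in young leaves and 0.636 in the shoot apical meristem. Ca_TC20845, by contrast, kept 0.888 times its flower bud 3 level in flower bud 4.

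Ca_TC04843, of 684 bases, had 71.6, 168, 188 and 138 RPKM in buds 1 to 4 and 4.84, 5.11, 1.36 and 3.28 RPKM in flowers 1 to 4. It had 6.35 RPKM in the germinating seedling, 1.18 in young leaves and 0.186 in the shoot apical meristem. The seedling value, from 104 reads, was its highest outside buds and the highest of any of the 50 in that tissue. Ca_TC09147, of 648 bases, was among the 4 steadiest over the buds, with 97.4, 138, 159.8 and 142 RPKM in buds 1 to 4. Outside buds it had 1.12, 2.91, 0 and 0.124 RPKM in flowers 1 to 4, 60 reads or 2.94 RPKM in the shoot apical meristem, and 0 reads in the other two vegetative libraries.

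How far the buds stood above the other tissues varied widely. Counting a library with 0 reads at its floor of 3 reads, the lowest bud was at least 8 times the highest other library in 25 of the 50, at least 20 times in 12 and at least 50 times in 2, with a median of 7.86. Of the 15575 transcripts with at least 5 RPKM in every flower bud, 8.3% had their lowest bud above every other library, as all 50 do by the rule. These ratios are what the rule selected on, and it also caps the values outside buds. As a description, 10 of the 50 had 0 reads in all 3 vegetative libraries, where 0.205% of the 15575 transcripts with at least 5 RPKM in every flower bud had none. Of the 50, 13 stayed under 1 RPKM in all 7 other libraries. For 22 of the 50, the lower counting bound of the lowest bud was under 4 times the highest upper bound among the 7 other libraries. The ratio intervals given for single transcripts are a different measure, set against the highest other library alone.

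Ca_TC28655 and Ca_TC32983 had 0 reads in all 7 other libraries. Ca_TC32983, of 179 bases, had 29.0, 41.5, 24.1 and 9.21 RPKM in buds 1 to 4. Its lowest bud was 11.2 times the floor of 3 reads per library, which was highest in flower 3. Ca_TC28655 had 22.9, 24.9, 20.0 and 5.89 RPKM in buds 1 to 4. Its length was taken as 160 bases, the shortest of at least 100 that made its reads whole. All its recovered reads are even numbers, so longer lengths fit as well and would give more reads. At 160 bases flower bud 4 held 28 reads of it (95% counting interval 3.91 to 8.51 RPKM), at least 6.40-fold higher than that floor. Both transcripts had their fewest reads in flower bud 4, 49 of Ca_TC32983 and 28 of Ca_TC28655.

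Beside Ca_TC27513, the largest ratios with floors counted belonged to Ca_TC30159, Ca_TC25738, Ca_TC25644, Ca_TC23381 and Ca_TC01203. Ca_TC30159 had 55.3, 89.6, 117 and 33.4 RPKM in buds 1 to 4, and outside buds only 1 read in flower 3 and 2 in flower 4. Ca_TC25738 had 75.6, 97.0, 103 and 34.8 RPKM in buds 1 to 4, and outside buds a single read, in flower 1. Ca_TC25644 had 63.1, 54.5, 44.8 and 22.1 RPKM in buds 1 to 4, and outside buds a single read, in young leaves. In these 3 each bud held at least 202 reads, and with floors counted the ratio to the highest other library was 79.5 in Ca_TC30159, 47.3 in Ca_TC25738 and 46.2 in Ca_TC25644. Those ratios were set by the floors of libraries with 0 reads. The most reads seen outside buds were, in the same order, 2 in flower 4, 1 in flower 1 and 1 in young leaves. Against these the ratios were 124 (95% counting interval 34.1 to 1031), 173 (30.7 to 6854) and 185 (32.8 to 7329.8). Ca_TC23381 had 34.1, 59.3, 59.7 and 18.2 RPKM in buds 1 to 4, 0.512, 0.486, 0.0733 and 0.479 RPKM in flowers 1 to 4 and 0 reads in vegetative tissue. Ca_TC01203, at 2265 bases the longest of the set, had 62.9, 109.8, 143 and 73.6 RPKM in buds 1 to 4 and at most 1.78 RPKM elsewhere, in flower 2. Its reads, 3616 to 11523 per bud, make it one of the best-counted of the set.

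**Figure D3:**
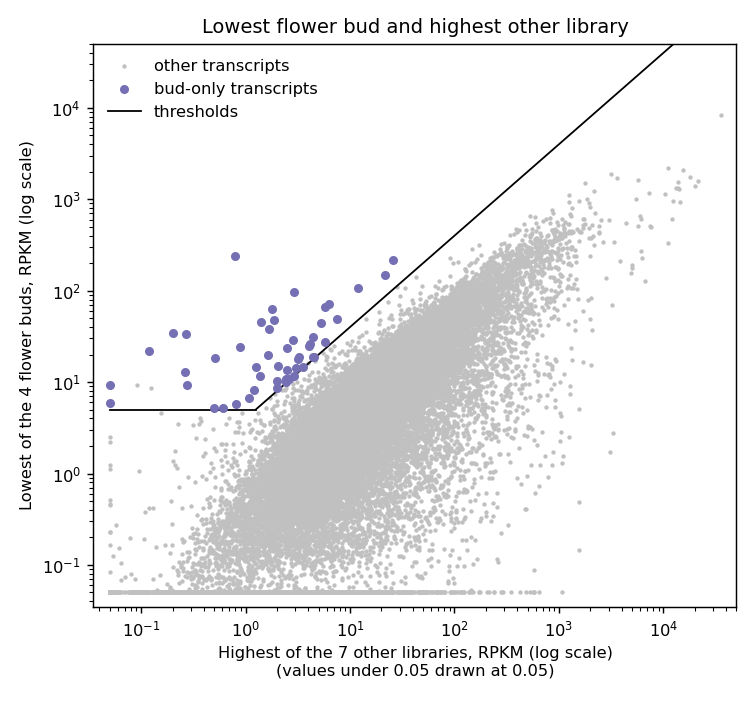
Each point is 1 transcript, with its highest RPKM among the 7 other libraries on the x axis and its lowest RPKM among the 4 flower buds on the y axis, both on log scales, and lines mark the thresholds of 5 RPKM and 4-fold. The 50 bud-only transcripts, in purple, lie above both lines by the rule, while the 4 grey points above them were left out by the clause on flower bud 4.

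Outside buds, most of the 50 had a higher mean level in flowers than in vegetative tissue, which is given as a description. The mean over the flowers was above the mean over the vegetative tissues in 41 transcripts, below it in 7, and both were 0 in 2. As a percent of the bud mean, the median over the 50 was 3.20% in flowers and 0.869% in vegetative tissues. The highest other library was a flower in 38 transcripts, flower 1 in 25 of them, and a vegetative tissue in 10. There were 4 flower libraries and 3 vegetative ones, which favours a flower as the highest. These counts were not made over all transcripts, so whether they are particular to the 50 was not tested. Ca_TC07620 was 1 of the 7, with 27.6, 59.4, 63.4 and 42.5 RPKM in buds 1 to 4 and 3.48, 2.43, 5.59 and 4.52 RPKM in flowers 1 to 4. It had 4.76 RPKM in the germinating seedling, 4.45 in young leaves and 5.81 in the shoot apical meristem, the highest of the set in both of the last tissues. Ca_TC29711, another of them, reached 4.18 RPKM in the shoot apical meristem, with at most 1.80 RPKM in a flower, beside 25.8, 142, 117 and 59.6 RPKM in buds 1 to 4.

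Among the flower stages, which the rule only caps, flower 1 was the highest in 28 of the 50 and flower 3 the lowest in 27. Of all 15575 transcripts with at least 5 RPKM in every bud, flower 1 was highest in 19.5% and flower 3 lowest in 37.4%. Many of these values rest on few reads. Ca_TC00730 went the other way, with 48.7, 92.1, 111 and 54.7 RPKM in buds 1 to 4 and 4.67, 4.34, 7.44 and 5.97 RPKM in flowers 1 to 4, its flower 3 value being the highest of the set in that library. On the log2(RPKM + 1) scale the step to flower 2 had a median of -0.30 over the 50, that to flower 3 -0.25 and that to flower 4 0.37, against 0.07, -0.11 and 0.07 over the 15575. Steps of at least 2-fold on this scale are given as counts of the 50, with the background share in brackets. In flower 2 over flower 1, 1 transcript was higher and 1 lower (0.449% and 0.173%). From flower 2 to flower 3, 0 were higher and 8 lower (5.76% and 10.2%). From flower 3 to flower 4, 7 were higher and 0 lower (3.74% and 2.79%). The scale compresses values as low as these, and the pseudocount moved these counts (0.1 in place of 1 gave 21 lower in flower 3 and 22 higher in flower 4).

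Within the buds, the typical transcript was highest in the middle stages. Flower bud 3 was the highest bud in 25 of the 50, flower bud 2 in 20, flower bud 1 in 4 and flower bud 4 in 1. Flower bud 2 or 3 was the highest in 45, against 35.4% of the 15575 transcripts with at least 5 RPKM in every bud. Both of these middle buds exceeded both outer buds in 33 of the 50, against 17.2% of the 15575. In 42 of the 50 the highest bud was at least 2 times the lowest, and 28 of these 42 had the middle buds on top, against 21.8% of the 3258 transcripts of the 15575 that varied as much. The lowest bud was stage 4 in 30 transcripts and stage 1 in 20, which was not counted over the 15575. Scaled to each transcript's own bud mean, the medians were 73.2%, 124%, 131% and 64.7% in flower buds 1 to 4. The rule did not use the order of the buds, except that it left out 4 transcripts whose earlier buds were all at least 4 times flower bud 4, so falls into that stage are capped. It also caps every tissue outside buds, flower 1 after the last bud among them, which was not asked of the 15575. How far that demand favours a peak in the middle buds was not tested. In 26 of the 33, the 95% counting intervals of the middle and outer buds did not overlap. That count depends on read depth as well as on shape and was not made over the 15575.

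**Figure D4:**
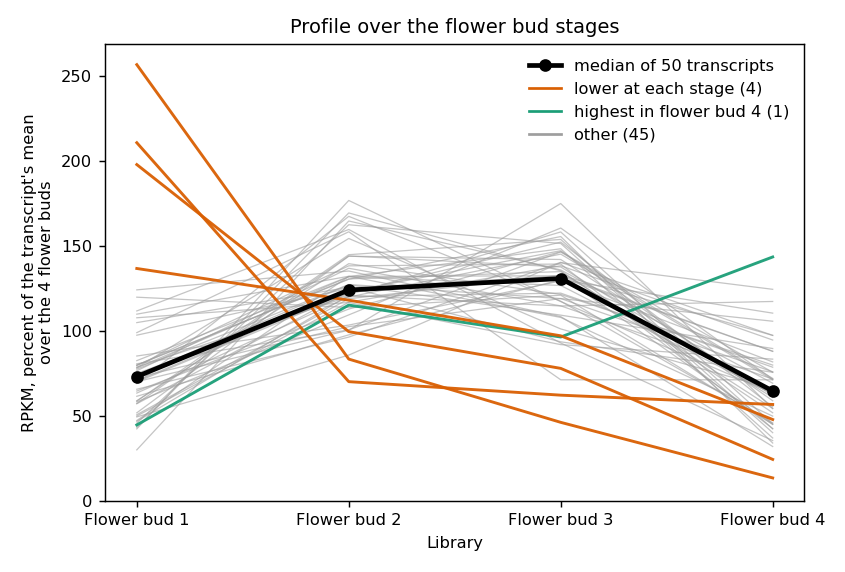
Each line is 1 of the 50 transcripts over flower buds 1 to 4, with the y axis in percent of its own mean over the 4 buds. The black line, the median, runs from 73.2% in flower bud 1 through 131% in flower bud 3 to 64.7% in flower bud 4; orange marks the 4 transcripts that were lower at each stage and green the 1 that was highest in flower bud 4.

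The steps between neighbouring buds show where the profile bends. In flower bud 2 over flower bud 1, 45 of the 50 had a higher value, 15 of them by at least 2-fold on the log2(RPKM + 1) scale, and 2 were at least 2-fold lower, where 4.07% and 1.46% of the 15575 background transcripts passed the same size. In flower bud 3 over flower bud 2, 25 were higher and 25 lower, and 0 were higher and 1 lower by 2-fold (background 1.01% and 0.52%). In flower bud 4 over flower bud 3, 48 had a lower value, 24 of them by at least 2-fold, and 0 were higher by that size (background 2.59% lower and 1.8% higher). The counts by direction alone were not made over the 15575. The median step was 0.73, -0.01 and -0.98, against -0.06, -0.03 and -0.04 over the 15575. Flower bud 2 was the shallowest library, and flower bud 3 the deepest. The step on to flower 1 is fixed by the rule: all 50 were lower, with a median of -3.08 and a range of -7.35 to -1.72, where 5.55% of the background was lower by 2-fold and 3.14% higher.

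Levels differed in size among the transcripts that shared this shape. Ca_TC29711 had the largest ratio of flower bud 2 to flower bud 1, 5.49, and Ca_TC26300, with 19.0, 79.4, 52.7 and 28.5 RPKM in buds 1 to 4, followed at 4.18. Ca_TC26300 was named after its values were seen. The 4 steadiest over the buds, beside Ca_TC09147, were Ca_TC25197, Ca_TC12973 and Ca_TC32025. Ca_TC25197 had 40.3, 43.7, 34.4 and 31.2 RPKM in buds 1 to 4, 3.68, 2.12, 3.94 and 4.39 RPKM in flowers 1 to 4, and 3.20 RPKM in the germinating seedling, 1.75 in young leaves and 3.82 in the shoot apical meristem. Its highest bud was 1.40 times its lowest, the smallest such ratio of the set. Ca_TC12973 had 66.7, 102, 104 and 66.7 RPKM in buds 1 to 4 and 5.74, 4.34, 2.20 and 3.20 RPKM in flowers 1 to 4. Ca_TC32025 had 49.3, 59.9, 74.9 and 47.3 RPKM in buds 1 to 4 and at most 1.89 RPKM elsewhere, in flower 4. Such even levels were the exception: the highest bud was under 2 times the lowest in 8 of the 50, against 79.1% of the 15575, and the median of that ratio was 2.72 in the set and 1.53 in the background.

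A straight rise or fall over the bud stages was tested with limma, on all 31776 transcripts with at least 1 RPKM in at least 3 libraries, in 1 fit over flower buds and flowers with a slope for each class. All 50 transcripts entered, as their bud levels alone pass that filter. The slopes use the same bud values as the rule, whose clause on flower bud 4 limits a late fall. The p-values measure the scatter of stages about a line, not of replicate plants, and a line does not describe a profile with a peak in the middle. Ca_TC16396, of 1575 bases, had 127, 41.3, 22.9 and 6.67 RPKM in buds 1 to 4. Its level was lower at each stage, and it was the highest of the set in flower bud 1 relative to its own bud mean, at 257%. It fell by 3.90 ± 0.35 on the log2(RPKM + 1) scale along the fitted line from stage 1 to stage 4 (SE; limma, adjusted p = 0.0174), and was the only 1 of the 50 called, so 1 was called lower and 0 higher, where 0.349% of all tested transcripts were called higher and 0.186% lower. At an unadjusted p under 0.05, 7 of the 50 were lower and 0 higher, where 8.18% of all tested transcripts were lower and 6.68% higher. These directions rested on the outermost buds. Without flower bud 4, 16 of the 50 were higher and 3 lower at that p (background 5.7% and 5.43%), and the median fitted change was 1.35 in place of -0.11. Without flower bud 1, 0 were higher and 19 lower (4.83% and 5.69%), with a median of -1.51. The call of Ca_TC16396 was lost without flower bud 1 (-3.70, limma adjusted p = 0.157), without flower bud 4 (-3.64, limma adjusted p = 0.162) and with no filter on low values (-3.90, limma adjusted p = 0.0579).

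Outside buds Ca_TC16396 was low, with 0.410, 0.326, 0.343 and 0.305 RPKM in flowers 1 to 4 and 0.371 RPKM in the germinating seedling, 1.08 in young leaves and 0.161 in the shoot apical meristem. The next largest negative differences between flower bud 4 and flower bud 1 were those of Ca_TC27076, Ca_TC28655 and Ca_TC22003. Ca_TC27076 had 42.2, 21.2, 16.6 and 5.19 RPKM in buds 1 to 4, 0.602, 0.170, 0 and 0 RPKM in flowers 1 to 4 and 0 reads in vegetative tissue, with a fitted change of -2.62 ± 0.43 (SE; limma, adjusted p = 0.0518). Ca_TC22003 had 19.5, 6.48, 5.75 and 5.24 RPKM in buds 1 to 4, so that flower bud 1 stood apart from the later 3, and 0.496, 0.140, 0.101 and 0.329 RPKM in flowers 1 to 4, with a fitted change of -1.59 ± 0.52 (SE; limma, adjusted p = 0.218). Together with Ca_TC25644 and Ca_TC16396, Ca_TC27076 and Ca_TC22003 were the 4 transcripts lower at each successive bud, against 15.8% of the background.

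Seen from flower bud 1 to flower bud 4, the largest positive differences were those of Ca_TC27654, Ca_TC20845, Ca_TC32359 and Ca_TC29711, at 1.68, 1.33, 1.28 and 1.18 on the log2(RPKM + 1) scale. None passed the test of a line (limma, adjusted p from 0.374 to 0.673). Ca_TC27654 had a fitted change of 1.44 ± 0.69 (SE; limma, adjusted p = 0.386). Ca_TC32359 had 19.1, 49.3, 46.7 and 47.8 RPKM in buds 1 to 4, so that flower bud 1 was low and the later 3 buds nearly equal, and 4.43, 3.31, 1.58 and 3.10 RPKM in flowers 1 to 4. Ca_TC29711, given above, had its highest level in flower bud 2 and its profile did not climb stage by stage. Of the 50, 0 were higher at each successive bud, against 9.1% of the 15575. For the line over the flower stages, 0 of the 50 were called by limma, where 1.1% of all tested transcripts were called higher and 0.815% lower, and 1 of the 50, Ca_TC11722, had an unadjusted p under 0.05, with a lower value along the line, where 8.87% of all tested transcripts were lower at that p and 10.2% higher.

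The 50 were short. Their lengths, recovered from the values, ran from 142 to 2265 bases with a median of 240, against a median of 1346 among the 15575 transcripts with at least 5 RPKM in every bud and of 736 among all 34703 with reads. A recovered length is the shortest that gives whole reads, so lengths of transcripts with few reads, many of them in the last group, can be understated. Under 300 bases were 30 of the 50, against 7.24% of the 15575. Of the rest, 15 were under a kilobase and 5 at or above it. Seen the other way, 2.66% of the 1127 short transcripts at that bud level were among the 50, and 0.138% of the 14448 longer ones. The peak in the middle buds was found at both lengths, in 21 of the 30 short and 12 of the 20 longer ones, against 37.7% and 15.6% of the background of the same length. The 32 transcripts confined by the same thresholds to flower buds 1 to 3 had a median of 268.5 bases, while the 9 confined to the 4 flowers had one of 775 bases. Short entries of a transcript set can be fragments of 1 gene, and how many genes the 50 represent was not tested.

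**Figure D5:**
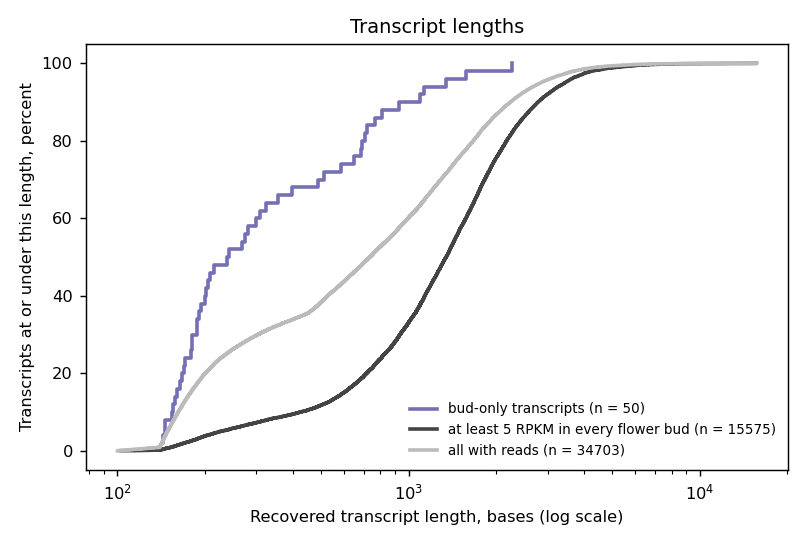
Curves give the percent of transcripts at or under each recovered length, on a log scale, for the 50 bud-only transcripts, the 15575 with at least 5 RPKM in every flower bud and all 34703 with reads. The median is 240 bases for the bud-only transcripts, against 1346 and 736 bases.

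Transcripts lay close to each threshold on both sides. Without flower bud 1 the rule gave 91 transcripts, with all 50 among them. Without flower bud 4 it gave 106, but the clause on that stage then drops out and no demand is made of its level. All 50 are among the 106 by construction. Leaving out a bud can only loosen the thresholds of fold and level. Just inside the 4-fold threshold were Ca_TC33052, Ca_TC29875 and Ca_TC24379, whose lowest bud was 4.03, 4.11 and 4.17 times the highest other library. Ca_TC33052 had 11.7, 18.5, 24.7 and 21.0 RPKM in buds 1 to 4 and 2.90 RPKM in flower 1. Just outside were Ca_TC25400, Ca_TC22771 and Ca_TC32523, at 3.90, 3.87 and 3.82 times. Ca_TC22771 was abundant, with 110.2, 149.7, 200.4 and 165 RPKM in buds 1 to 4, but had 28.5 RPKM in flower 1 and 18.7 in the germinating seedling. Near the level threshold, Ca_TC27076, Ca_TC22003 and Ca_TC22543 had a lowest bud of 5.19, 5.24 and 5.77 RPKM. Ca_TC19924, Ca_TC29949 and Ca_TC21853, at 4.56, 4.55 and 4.06 RPKM, fell outside it. Ca_TC22543 had 15.3, 14.6, 15.5 and 5.77 RPKM in buds 1 to 4, flat over 3 stages and lower in the last.

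The clause on flower bud 4 parted the set from transcripts of the first 3 buds. Ca_TC16396, Ca_TC28655 and Ca_TC27076 were nearest to it inside, with the lowest of buds 1 to 3 at 3.43, 3.39 and 3.20 times flower bud 4. Ca_TC20525, Ca_TC24558 and Ca_TC23452 lay outside, at 4.59, 5.05 and 5.28. Ca_TC23452 had 84.9, 303, 156 and 16.1 RPKM in buds 1 to 4, and Ca_TC20525 had 42.9, 54.2, 44.4 and 9.36 RPKM in buds 1 to 4. All 4 transcripts removed by this clause belong to the 32 of flower buds 1 to 3. In those 32, flower bud 1 was the highest bud in 11, flower bud 2 in 18 and flower bud 3 in 3. In 10 of the 32 both middle buds exceeded both outer buds. The rules make opposite demands on flower bud 4, and the difference between the sets was not tested.

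The naming rule left 24 of the 50 to be summarised. Their mean bud levels ran from 13.0 RPKM in Ca_TC26411 to 77.2 RPKM in Ca_TC25783, and their lengths from 143 to 768 bases. Flower bud 2 was the highest bud in 14 and flower bud 3 in 10, with both middle buds above both outer buds in 19. Outside buds they reached at most 5.25 RPKM in a flower, in Ca_TC28442, and 3.05 RPKM in vegetative tissue, in Ca_TC30186. Counting 0 reads at the floor, their lowest bud was 4.18 (Ca_TC11722) to 34.0 times (Ca_TC20339) the highest other library. Ca_TC25783 had 45.4, 108, 93.8 and 61.7 RPKM in buds 1 to 4 and 0.564, 0.479, 1.37 and 1.40 RPKM in flowers 1 to 4. Ca_TC20339 had 20.8, 33.3, 37.4 and 9.32 RPKM in buds 1 to 4, and at most 0.274 RPKM elsewhere. Both were highest in the middle buds, and the flower values of Ca_TC25783 rest on 2, 2, 4 and 5 reads. The others of the 24 were Ca_TC08910, Ca_TC12956, Ca_TC14676, Ca_TC20812, Ca_TC23496, Ca_TC24872, Ca_TC24911, Ca_TC26300, Ca_TC26361, Ca_TC28517, Ca_TC29050, Ca_TC29570, Ca_TC30041, Ca_TC31012, Ca_TC31350, Ca_TC31684, Ca_TC32983 and Ca_TC33784.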

How the data were processed

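Each of the 11 mRNA-Seq libraries came with RPKM values for 34760 chickpea transcripts. Per the series text, the authors used NGS QC Toolkit to filter reads, which were mapped to these transcripts, and computed RPKM. The aligner is not given in the sources used here. In these files 128 rows without an ID were left out.

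Since each value is a read count scaled by length and depth, whole reads, lengths and library totals were recovered from the deposited RPKM values (reads whole within 3e-06). Poisson intervals (scipy 1.17.1) cover counting error only.

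The 50 transcripts, the lists and the naming rule were chosen with earlier results of these data known. Transcripts named were the highest in level, in ratio and in each non-bud library, the largest bud differences, the steadiest, and those nearest each threshold. Ca_TC26300, Ca_TC11722, Ca_TC32983 and the examples of the last group were named after their values were seen.

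Stage slopes were fitted with limma 3.58.1 (R 4.3.3) on log2(RPKM + 1) over the 8 flower bud and flower libraries, with an intercept and a slope per class, and checked on simulated data. A call needed a Benjamini-Hochberg adjusted p under 0.05 and a fitted change of at least 1 (log2) from stage 1 to stage 4. Alternatives changed thresholds, scaling, filter, pseudocount, and left out each library.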

Additional observations from a re-analysis of the deposited data

Results flagged for a closer look

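In 30 profiles a check was made for 1 stage far from the other 3 of its class, and 3 were marked. The profiles were the buds of 26 named transcripts, and the summed and median levels of the set in buds and in flowers. Many of these transcripts were named for their bud values, so the count marked cannot be set against a chance rate. Ca_TC22003 had 19.5 RPKM in flower bud 1, far above its later buds. Ca_TC22543 had 5.77 RPKM in flower bud 4, far below its earlier buds. Ca_TC32359 had 19.1 RPKM in flower bud 1, far below its later buds. The buds are successive stages and not replicates, so a difference of stage and an outlying library cannot be told apart.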

How the results depend on the processing

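The count of 50 became 27 with a fold of 8 (libraries of 0 reads kept at 0) and 28 when counting bounds had to clear the 4-fold threshold. Leaving out each library in turn gave 50 to 106. This can only loosen the thresholds of fold and level, so these counts could not show a loss there. Only the clause on flower bud 4 could remove transcripts, and without flower bud 3 48 of the 50 remained. The other 8 settings of the rule gave 37 to 75. Transcripts with flower buds 2 and 3 on top numbered 33 to 35 over 3 scalings and 26 with non-overlapping intervals, and those with flower 3 lowest 23 to 27; these settings were chosen after seeing the data. Bud slope calls (limma) numbered 1, and 0 with no filter on low values. They numbered 2 with quantile normalization and 2 with voom on recovered reads (limma), Ca_TC27076 joining at adjusted p = 0.0409 and 0.0412. Leaving out each library gave 0 to 2 calls, with 2 without flower 3 or flower 4 (Ca_TC27076, limma adjusted p = 0.0318 and 0.0389). The cause of these shifts was not tested. Flower slope calls were 0 under every alternative run, with 0 to 9 of the 50 at an unadjusted p under 0.05 (limma). Under median-of-ratios scaling the difference of flower bud 4 minus flower bud 1 became 0.18 for Ca_TC12973 and 0.12 for Ca_TC32025, against -0.0014 and -0.06 as deposited. Without flower bud 4 the median fitted bud change of the 50 became 1.35, against -0.11 with all buds. No paired analysis was possible because the numbers in the labels are stages and not replicates. With 1 library per stage, counting error is known but the spread between plants is not.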
